A study of Rattus norvegicus with 4 samples.

Results

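The pentose phosphate pathway enzymes described here are Pgls, Pgd, H6pd, Rpia, Rpe, Tkt and Taldo1, measured in rat oligodendrocyte precursor cells (OPCs) after silencing of the G protein-coupled receptor GPR17. They were chosen by name as members of the pathway, and each was found on the arrays through the RefSeq accession of its probe. All 7 genes had 1 probe each, and these 7 probes are among 45598 non-control probes on the array. Primary OPCs came from pooled cortices of Sprague-Dawley rats at postnatal day 2, and no separate animals can be told apart within a sample. They proliferated for 3 days with bFGF and PDGF, were moved to differentiating medium containing T3 and received 50 nM of RNA with Lipofectamine RNAiMAX. The siNEG group received a non-targeting RNA pool, and the siGPR17 group a SMARTpool of siRNAs against rat Gpr17. Each group holds 2 independent samples, lysed 48 h later at 2 days of maturation, with 1 one-color Agilent array per sample.

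The pentose phosphate pathway branches from glycolysis at glucose 6-phosphate. Its oxidative reactions release carbon dioxide and reduce NADP+ to NADPH, the electron donor for fatty acid and cholesterol synthesis and for the regeneration of glutathione. Its non-oxidative reactions are reversible and interconvert sugar phosphates, so that ribose 5-phosphate can be made for nucleotides or carbon can return to glycolysis as fructose 6-phosphate and glyceraldehyde 3-phosphate. Oligodendrocytes make large amounts of lipid for myelin, and the pathway is known as one of their sources of NADPH.

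The silenced gene was checked first. The normalized signal of Gpr17 was 1107 and 1113 on the siNEG arrays and 652 and 639 on the siGPR17 arrays. Signals here are spot intensities scaled to the 75th percentile of each array and multiplied by 1 factor common to all arrays, so they can be compared between arrays for 1 probe but not between probes. The log2 difference, siGPR17 minus siNEG, was -0.78 (standard error 0.085, n = 2 per group, adjusted p = 0.209 from limma). The groups did not overlap, and the siGPR17 arrays were the lower ones. The arrays were alike in quality, with 26997 to 28244 probes well above background on each, and the probes of all 7 enzymes were well above background and below saturation on all 4.

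Among the enzymes, the transcripts of the oxidative reactions in the cytosol had the highest mean differences. Pgd was 1.30-fold higher and Pgls 1.19-fold higher in siGPR17 OPCs, both with all siGPR17 arrays above all siNEG arrays. H6pd, the oxidative enzyme of the endoplasmic reticulum, was 1.13-fold lower, though not with scaling on spike-in controls, where its log2 difference was 0.013. Rpe was 1.12-fold higher, and Rpia, Tkt and Taldo1 had mean differences smaller than their standard errors. None of the 7 met both thresholds that the methods of the study set, at least 1.5-fold with an adjusted p below 0.07 (0 of 7, adjusted p from 0.229 to 0.791 from limma with Benjamini-Hochberg adjustment over all 28016 tested probes).

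**Figure D1:**
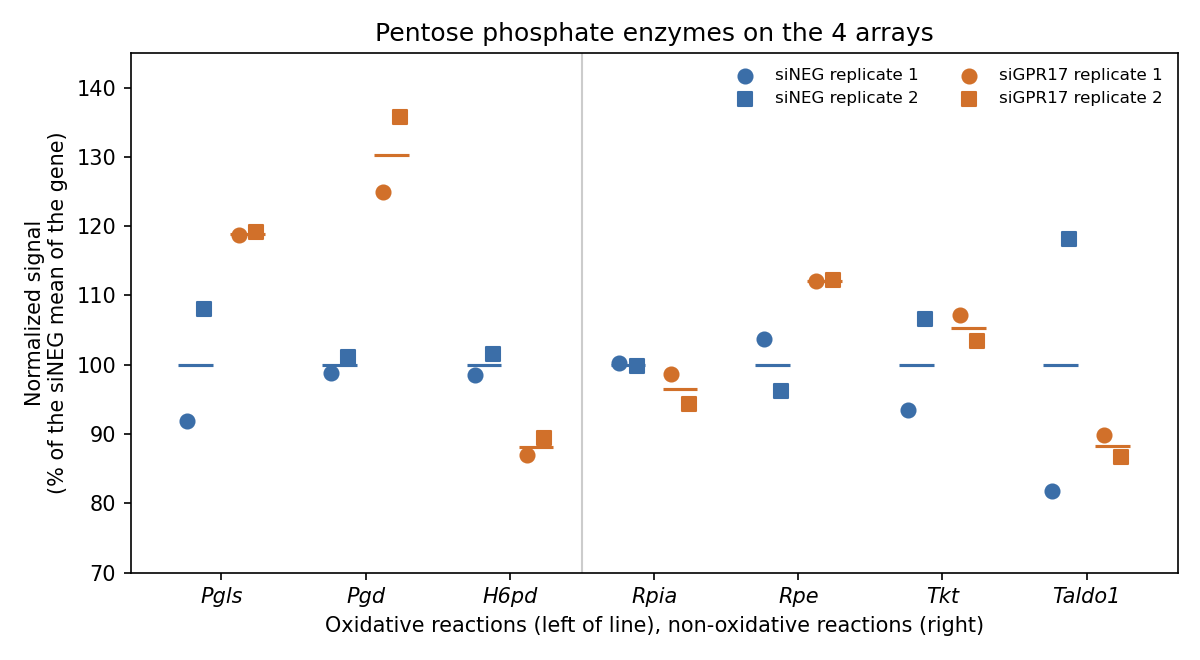
Normalized signal of the 7 enzymes on each of the 4 arrays, as percent of the mean of the 2 siNEG arrays of the same gene (vertical axis, which does not start at 0); circles and squares are replicates 1 and 2, and short lines are group means. The siGPR17 points of Pgd, Pgls and Rpe lie above both siNEG points, those of H6pd and Rpia lie below them (their mean differences are 0.013 and 0.14 on the log2 scale with spike-in scaling), and the siNEG points of Taldo1 lie farther apart than those of any other enzyme.

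These counts can be read against all 11656 genes with a tested probe, a gene with several probes being represented by its brightest. Of all genes, 0 (0%) passed both thresholds in limma, while 1884 had an unadjusted p under 0.05. The 0 depends on the setting, since 184 genes passed with the trend and robust options of limma and 112 after normexp background correction, none of them an enzyme of the 7. Of the enzymes only Pgd was under 0.05, on the higher side, as were 7.43% of all genes, and none was on the lower side, where 8.73% were. Without the first or the second siGPR17 array, respectively 767 and 707 genes were under 0.05, and 0 of the enzymes were. In both siGPR17 arrays 3 enzymes were above both siNEG arrays, against 28.1% of genes, and 2 were below, against 25.3%. No enzyme reached a fold of 1.5, which 5.08% of genes did in either direction. The median log2 difference was 0.08 over the 7 enzymes and 0.0099 over all genes. That of the enzymes was -0.017 without the first siNEG array. Scaling on spike-in controls in place of the percentile moved the median of all genes to 0.20, and the share of higher genes among those with p under 0.05 from 46% to 87.3%. With 2 arrays against 2, an exact permutation test has 3 splits and cannot give a two-sided p under 0.33.

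Pgls encodes 6-phosphogluconolactonase, which opens the lactone made in the entry step of the pathway. Its signal was 4113 and 4837 on the siNEG arrays and 5311 and 5334 on the siGPR17 arrays. The siGPR17 arrays were both higher, although the siNEG arrays differed from each other by 17.6%, nearly as much as the groups did. The log2 difference was 0.25 (standard error 0.12, n = 2 per group, 95% interval -0.065 to 0.57, adjusted p = 0.360 from limma). With each array left out in turn it lay between 0.14, without the first siNEG array, and 0.37, without the second.

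Pgd encodes 6-phosphogluconate dehydrogenase, which makes NADPH and ribulose 5-phosphate, the substrate of both branches that follow. Its signal was 497 and 509 in siNEG and 628 and 683 in siGPR17 OPCs. The siNEG arrays differed by 2.39% and the siGPR17 arrays by 8.70%, both less than the distance between the groups. The log2 difference was 0.38 (standard error 0.094, n = 2 per group, adjusted p = 0.229 from limma), with a 95% interval from 0.12 to 0.64. It was positive under all 14 alternatives run, leaving out each array among them, and the adjusted p ranged from 0.0758, when the variance prior followed mean brightness and was fitted robustly, to 0.768, without the second siGPR17 array. Pgd is the only enzyme of the 7 whose interval does not include 0.

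H6pd encodes hexose-6-phosphate dehydrogenase, which carries out the opening oxidative steps inside the endoplasmic reticulum and supplies NADPH there. Its probe was the dimmest of the 7, yet well above background on every array. The signal was 85.9 and 88.5 in siNEG and 75.8 and 78.0 in siGPR17 OPCs. Both siGPR17 arrays were lower, and replicates differed by 3.12% in siNEG and 2.81% in siGPR17. The log2 difference was -0.18 (standard error 0.086, n = 2 per group, 95% interval -0.42 to 0.055, adjusted p = 0.373 from limma). It was 0.013 with scaling on spike-in controls, where all genes shifted by the amount given above. The ratio of H6pd to Pgd within an array does not depend on the factor by which the array is scaled, and shows how unequally the pair differed, not the direction of either. Relative to its siNEG mean, this log2 ratio was -0.0051 and 0.0051 on the siNEG arrays and -0.52 and -0.60 on the siGPR17 arrays. The mean change of the ratio was -0.56, and its groups did not overlap. The pairs of enzymes set against each other here and below were chosen after their values had been seen, and no test was run on the ratios.

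Of the other genes that handle hexose phosphates in the endoplasmic reticulum, 3 of 7 were bright enough to be tested. The glucose-6-phosphate transporter Slc37a4, the ubiquitous phosphatase subunit G6pc3 and Slc37a1 had log2 differences from -0.048 to 0.072, and 0 had an unadjusted p under 0.05 in limma. Hsd11b1, the steroid reductase that uses the NADPH of H6pd, was too dim to be tested, as were Slc37a2 and G6pc1, and no probe was matched to G6pc2.

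To show the regions upstream of genes at opposite ends of this order, RefSeq sequences of the GRCr8 build are printed for Pgd (chr5:164882030-164882279, minus strand), which had the highest difference, H6pd (chr5:165753126-165753375, minus strand), which had the lowest, and Taldo1 (chr1:205922946-205923195, plus strand), whose window holds the same motifs as that of Pgd. Each run gives the 250 bases before the annotated start, 5′ to 3′ on the strand of the gene. Capitals mark a GC box (GGGCGG, the core bound by Sp1) or a CCAAT box (CCAAT), on either strand.
Pgd: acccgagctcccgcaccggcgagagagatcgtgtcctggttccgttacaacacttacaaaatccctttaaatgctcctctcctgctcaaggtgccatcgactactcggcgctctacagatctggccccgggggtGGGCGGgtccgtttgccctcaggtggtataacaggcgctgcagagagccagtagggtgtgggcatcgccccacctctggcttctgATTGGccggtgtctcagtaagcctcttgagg
H6pd: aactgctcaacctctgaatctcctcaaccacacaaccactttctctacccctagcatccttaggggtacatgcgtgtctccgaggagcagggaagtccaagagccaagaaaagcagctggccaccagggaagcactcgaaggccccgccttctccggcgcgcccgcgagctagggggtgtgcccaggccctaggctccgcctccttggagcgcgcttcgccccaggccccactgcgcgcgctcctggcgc
Taldo1: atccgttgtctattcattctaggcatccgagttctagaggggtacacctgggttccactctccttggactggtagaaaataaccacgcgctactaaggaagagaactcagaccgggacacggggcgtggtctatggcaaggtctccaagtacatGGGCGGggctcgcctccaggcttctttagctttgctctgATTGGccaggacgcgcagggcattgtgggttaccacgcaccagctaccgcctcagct
Pgd and Taldo1 each hold 1 GC box and, nearer to the start, 1 CCAAT box that reads ATTGG on the strand of the gene. H6pd holds neither. The array was designed on another build, and no coordinate of a probe is given.

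A window was listed for 6 of the 7 enzymes, the exception being Pgls, and the search covered 250 bases before and 50 after the start. The core of the antioxidant response element (TGACNNNGC), to which NRF2 binds, was in 0 of the 6 windows and in 12.1% of 33469 windows in the table. The E-box CACGTG, read by MYC, MLX and their partners, was in 0 of 6 and in 6.42% of all. The other motifs were added after the sequences had been seen. A GC box was in 4 of 6, those of Pgd, Rpia, Rpe and Taldo1, against 33.1% of all, and a CCAAT box in 3 of 6, those of Pgd, Rpe and Taldo1, against 37.5%. All motifs were searched on both strands, and no pair of these matches overlaps. The windows of the enzymes had a GC content between 54.3% for Tkt and 68.3% for H6pd, with a median of 51.7% over all windows. These matches describe letters only.

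The branch that follows Pgd starts with isomerization of ribulose 5-phosphate. Rpia, ribose 5-phosphate isomerase, makes the ribose 5-phosphate used for nucleotides. Its signal was 353 and 351 in siNEG and 347 and 332 in siGPR17 OPCs. Both siGPR17 arrays were below both siNEG arrays, by a margin smaller than the spread between the siGPR17 arrays. The log2 difference was -0.052 (standard error 0.087, n = 2 per group, 95% interval -0.29 to 0.19, adjusted p = 0.791 from limma), and it was 0.14 under spike-in scaling.

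Rpe, ribulose 5-phosphate 3-epimerase, takes the same substrate to xylulose 5-phosphate, the ketose donor of transketolase. Its signal was 999 and 926 in siNEG and 1079 and 1080 in siGPR17 OPCs. The siGPR17 arrays nearly coincided, above both siNEG arrays. The log2 difference was 0.17 (standard error 0.092, n = 2 per group, 95% interval -0.086 to 0.42, adjusted p = 0.425 from limma), from 0.11 to 0.22 with an array left out. Within arrays, the log2 ratio of Rpia to Pgd relative to its siNEG mean was -0.34 and -0.52 on the siGPR17 arrays, and that of Rpe to Pgd was -0.16 and -0.27. Both ratios were separated between the groups, with mean changes of -0.43 and -0.21. Neither enzyme had as high a difference as Pgd, their common supplier of substrate.

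Tkt, transketolase, moves fragments of 2 carbons between sugars and depends on thiamine, and Taldo1, transaldolase, moves fragments of 3. Together they return pentose carbon to glycolysis. The signal of Tkt was 195223 and 222518 in siNEG and 223899 and 215963 in siGPR17 OPCs, with overlapping groups. The log2 difference was 0.077 (standard error 0.11, n = 2 per group, 95% interval -0.22 to 0.37, adjusted p = 0.745 from limma). It was -0.017 without the first siNEG array. The 1000 tested probes nearest to Tkt in brightness had a median difference of the same size, 0.077, so that Tkt did not stand apart from probes as bright as itself. The other enzymes had such medians between 0.0033 and 0.053.

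Taldo1 had a signal of 30379 and 43870 in siNEG and 33369 and 32182 in siGPR17 OPCs. The siGPR17 arrays were both between the siNEG arrays. Their log2 difference from siNEG was -0.16 (standard error 0.20, n = 2 per group, 95% interval -0.71 to 0.40, adjusted p = 0.724 from limma), the widest interval of the 7. The sign rested on 1 array, since the difference was 0.11 without the second siNEG array and -0.42 without the first, and it was 0.038 under spike-in scaling.

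Taldo1 and Rpia were each printed 10 times on the array, which gives the error of a spot within an array. Of the 10 spots, 9 or 10 were free of outlier flags on each array. The spots of Taldo1 had a SD between 2.10% and 3.47% of their mean, and the lowest spot on the second siNEG array, at 41963, was above the highest spot on any other array, at 34562. The 44.4% between the siNEG arrays is therefore larger than the spread of spots within them. The 1000 probes nearest in brightness also had a higher signal on the second siNEG array than on the first, by a median of 0.14 on the log2 scale, while Taldo1 was higher by 0.53. For Rpia the spots had a SD between 4.04% and 8.16% of their mean, and the siNEG arrays differed by 0.468%. Spots of 1 array share their RNA and are not replicates of the treatment. The difference between the siNEG samples in Taldo1 was not tested further.

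**Figure D2:**
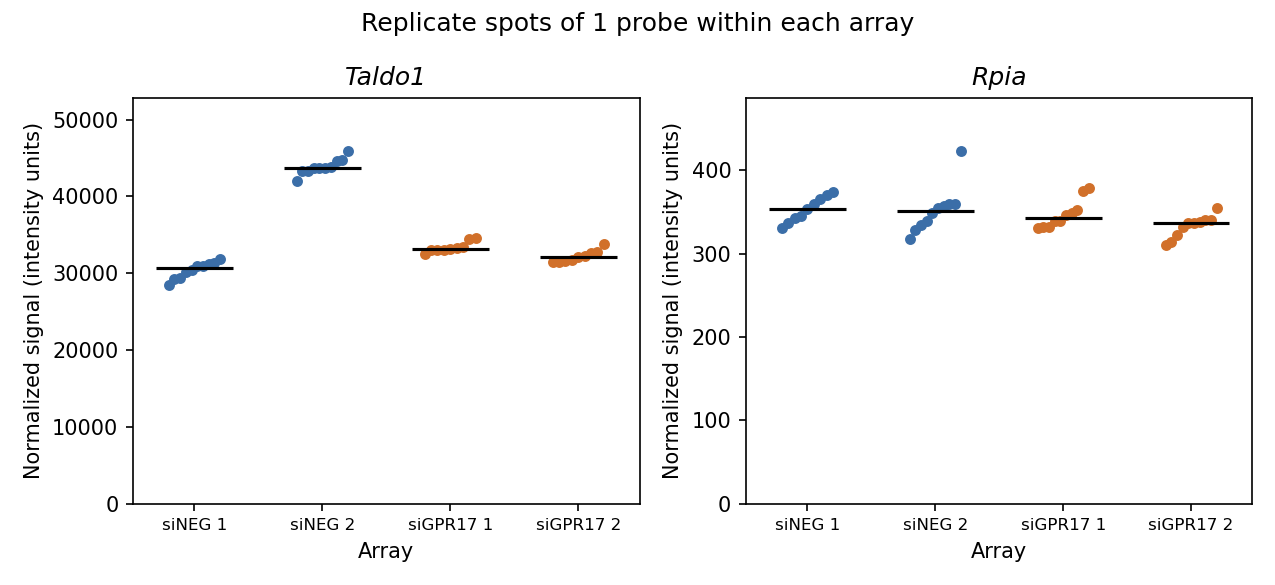
Normalized signal (vertical axes from 0, intensity units) of each unflagged spot of the Taldo1 and Rpia probes on the 4 arrays, with the median as a line. The spots of Taldo1 on the second siNEG array lie between 41963 and 45925, above all spots of the other arrays, while the spots of Rpia overlap on all 4.

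Tkt and Taldo1 work as partners, and their ratio cancels what bright probes of an array share through scaling. Relative to the siNEG mean, the log2 ratio of Taldo1 to Tkt was -0.17 and 0.17 on the siNEG arrays, and -0.23 on each siGPR17 array. The siGPR17 arrays coincided, just below the lower siNEG array, and the mean change of -0.23 was smaller than the distance between the siNEG arrays. The ratios of Pgd to Pgls and of Tkt to Rpe overlapped between the groups.

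**Figure D3:**
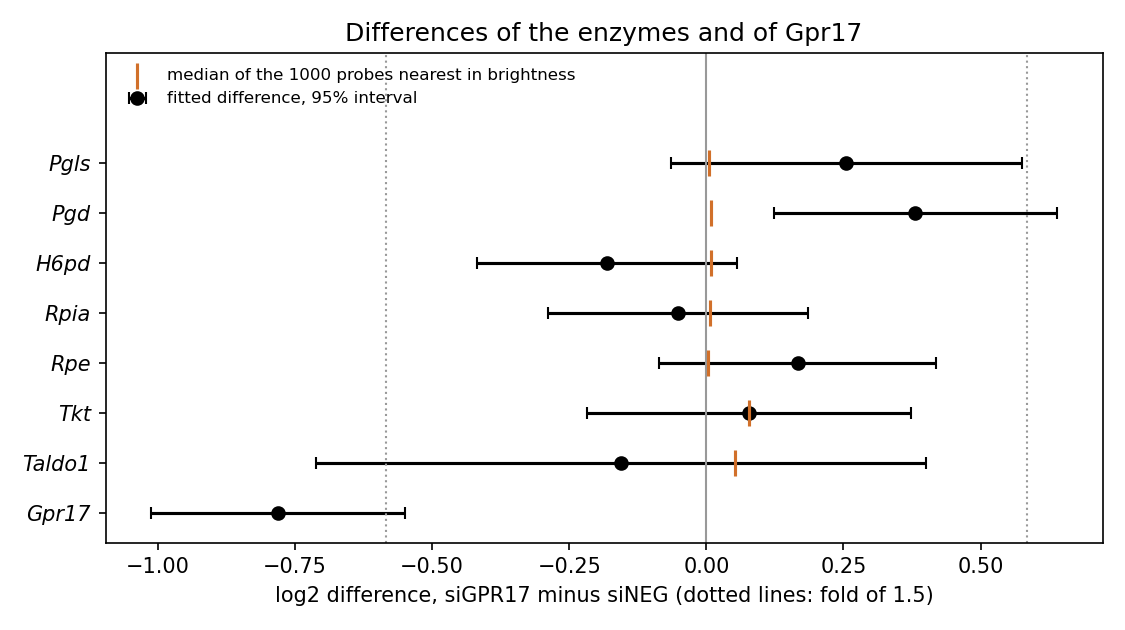
Log2 difference, siGPR17 minus siNEG, of the 7 enzymes and Gpr17, with 95% intervals from limma; vertical ticks give the median difference of the 1000 probes nearest in brightness to each enzyme, and dotted lines a fold of 1.5. The interval of Pgd, from 0.12 to 0.64, and that of Gpr17 do not include 0, and those of the other enzymes do.

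Beyond these enzymes, a list of 19 genes that act on pentoses, ribose phosphate or their neighbours was examined, of which 17 had a matched probe and 14 were tested. Of these, 13 had a higher mean in siGPR17 OPCs, as did 6059 of all 11656 genes, with a median log2 difference of 0.12 against 0.0099 over all genes. That of all genes was 0.20 with spike-in scaling. For this and each list that follows, the shares of all genes to set beside the counts with an unadjusted p under 0.05 are 7.43% higher and 8.73% lower. Only Rbks had an unadjusted p under 0.05, and 0 passed the thresholds in limma. Rbks encodes ribokinase, which phosphorylates free ribose and so feeds ribose 5-phosphate without any of the oxidative steps. Its signal was 623 and 638 in siNEG and 1086 and 1050 in siGPR17 OPCs. The groups were far apart relative to their spread, with a 1.69-fold higher mean (log2 difference 0.76, standard error 0.086, n = 2 per group, adjusted p = 0.209 from limma). The ketose kinases Shpk, Xylb and Fggy and the gluconokinase Idnk had differences between 0.12 and 0.21, with siGPR17 arrays above siNEG arrays in each. Prps1 and Prps2, the synthetases that turn ribose 5-phosphate into phosphoribosyl pyrophosphate, had log2 differences of 0.057 and -0.10. Tktl1, Tktl2 and Prps1l1 were too dim to be tested, and no probe was matched to Dera and Rpel1.

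NADPH is also made outside the pathway. Of 13 tested genes in a list drawn up for other sources, 9 had a higher mean, 3 of them with an unadjusted p under 0.05. Of the 4 lower genes 1 had such a p, while 0 passed the thresholds in limma. The counts include Mthfd1l, a synthetase that makes no NADPH itself, and the NAD kinases Nadk and Nadk2, which make NADP+. Me1, cytosolic malic enzyme, had a signal of 2577 and 2881 in siNEG and 3438 and 3428 in siGPR17 OPCs. This was a log2 difference of 0.33 (standard error 0.10, n = 2 per group, adjusted p = 0.261 from limma), close in size to that of Pgd. The folate enzymes of mitochondria Mthfd1l and Mthfd2l, of which only Mthfd2l is a dehydrogenase, had differences of 0.50 and 0.36. Nnt, the transhydrogenase of the inner mitochondrial membrane, was lower, at 2055 and 1989 in siNEG and 1441 and 1352 in siGPR17 OPCs. Its log2 difference was -0.53 (standard error 0.091, n = 2 per group, adjusted p = 0.209 from limma), the only NADPH source past an unadjusted p of 0.05 on the lower side. No probe was matched to Me3.

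A list of 22 genes, drawn up for enzymes that consume NADPH, also holds Lss, lanosterol synthase, which closes the sterol ring without using NADPH. With Lss counted, all 22 were tested, 14 had a higher mean and 4 an unadjusted p under 0.05, all higher, with 0 past the thresholds in limma. Among them were Hmox1, heme oxygenase, at 0.55, and Lss at 0.29 on the log2 scale. Fasn, fatty acid synthase, had a difference of 0.10, and Gsr, glutathione reductase, one of -0.15 with overlapping groups.

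The nucleotide genes downstream of ribose 5-phosphate were mixed. Of 18 tested, 11 had a higher mean, with a median log2 difference of 0.07. Unadjusted p were under 0.05 for 1 higher gene, Nampt (0.37), which makes the NAD precursor from phosphoribosyl pyrophosphate, and for 2 lower genes, Adss2 (-0.30), adenylosuccinate synthase, and Qprt (-0.38), quinolinate phosphoribosyltransferase. None passed the thresholds (0 of 18 in limma). No probe was matched to Adss1 and Uprt.

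The glycolytic enzymes that share metabolites with the pathway had a higher median, 0.45 over 11 tested genes, with 5 higher and 1 lower at an unadjusted p under 0.05 and 0 past the thresholds in limma. Gpi, which links glucose 6-phosphate to fructose 6-phosphate at the branch point, had a signal of 14149 and 15199 in siNEG and 20641 and 23038 in siGPR17 OPCs, a log2 difference of 0.57 (standard error 0.11, n = 2 per group, adjusted p = 0.210 from limma). Tpi1 and Aldoa, which handle the triose phosphates returned by Tkt and Taldo1, had differences of 0.45 and 0.46, and Pfkl, the liver phosphofructokinase, one of 0.79. Hk2, a hexokinase, at 0.51, and Pfkm, the muscle phosphofructokinase, at -0.34, were the other genes with such a p, named after their values were seen. Gpi, Tpi1, Aldoa and Pfkl, the 4 of the list with the lowest unadjusted p in limma, were all above Pgd, the highest of the 7 enzymes, at 0.38. Of the 11 genes, 4 had a lower mean, which were Pfkm, Pfkp (-0.21), Hk1 (-0.034) and Aldoc (-0.030). The difference between the lists was not tested. The fit gave Fbp1 a fold over 1.5, but its signal was 26 and 5.58 in siNEG and 103 and 9.34 in siGPR17 OPCs, was well above background on 1 array of each group, and overlapped. The median of the list counts Fbp1. Fbp2 was too dim to be tested.

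Of 11 tested regulators, 3 had an unadjusted p under 0.05, all higher, and 0 passed the thresholds in limma. Nfe2l2, the gene of the antioxidant factor NRF2, of which Pgd, Tkt and Taldo1 are known targets in other cells, had a signal of 154 and 125 in siNEG and 211 and 217 in siGPR17 OPCs. Its log2 difference was 0.63 (standard error 0.14, n = 2 per group, adjusted p = 0.216 from limma). The differences of the 3 genes just named as targets were 0.38, 0.08 and -0.16. Srebf1, the lipogenic factor SREBP1, had a difference of 0.72 and Mlx, the partner of the carbohydrate response factors, one of 0.33. No probe was matched to Nfe2l1 and Mlxip.

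**Figure D4:**
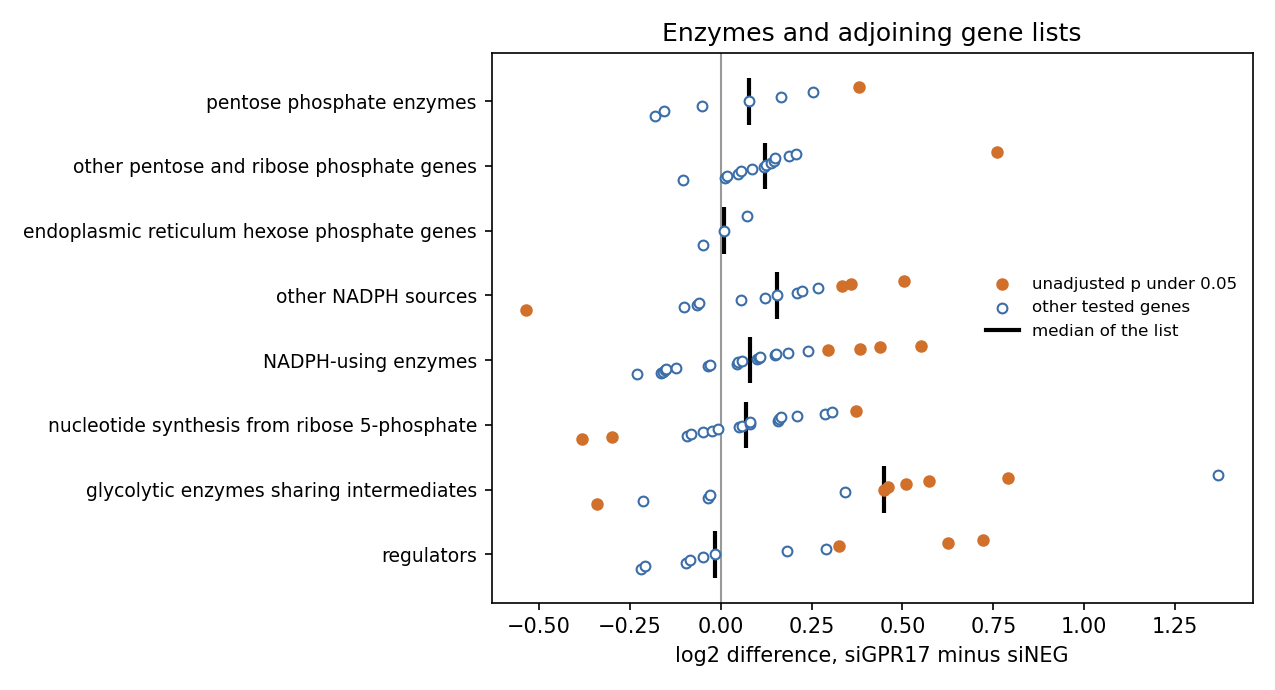
Log2 difference, siGPR17 minus siNEG, of every tested gene of the pentose phosphate enzymes and of 7 adjoining lists; filled points have an unadjusted p under 0.05 in limma, and a black line marks the median of each list. The median of the glycolytic list, 0.45, lies to the right of that of the pentose phosphate enzymes, 0.08, and 1 of the 7 enzymes is filled.

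For the enzymes, the gene of these lists with the most similar profile over the 4 arrays was sought, by the Euclidean distance between log2 values centred on the mean of each gene, among 92 candidates. For Pgd it was Nampt (distance 0.051, against a median of 0.34 over the candidates), and for Pgls it was Impdh1 (0.040, median 0.27), a gene of guanine nucleotide synthesis. Rpia was nearest to the mitochondrial NAD kinase Nadk2 (0.040), Rpe to Idnk (0.045), Tkt to the sterol reductase Tm7sf2 (0.034) and Taldo1 to the carbonyl reductase Cbr1 (0.094). The distance of Taldo1 was the largest of those given. A profile of 4 arrays holds little information, and the arrays share their scaling.

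Marker genes of several cell types were above background, and the enzymes are made by all of these cells. In a bulk sample, fewer cells of a type cannot be told apart from less RNA per cell. Summed signals below add probes that cannot be compared with each other, so each sum mainly follows its brightest probes. For astrocytes the brightest was Slc1a3, at 6967 and 7592 in siNEG and 5672 and 5545 in siGPR17 OPCs. Defining genes of the lineage were bright, with Sox10 at 50584 to 57382 and Mbp at 197178 to 272873 over the 4 arrays. Of 8 astrocyte genes, all tested, Aqp4 (-1.35), Gfap (-0.61) and Slc1a3 (-0.37) were lower and S100b (0.50) higher with an unadjusted p under 0.05, and the summed signal of the list was 10241 to 10963 in siNEG and 9756 to 9761 in siGPR17 OPCs. Of 7 endothelial genes 4 were tested and all 4 had a higher mean, with sums from 1075 to 1175 in siNEG and from 1558 to 1644 in siGPR17, while Pecam1, Cldn5 and Flt1 were too dim. Of 10 microglial genes 8 were tested, 7 with a lower and 1 with a higher mean, and Csf1r and Ptprc were too dim. Aif1 (-0.56, at signals of 28 to 46) and P2ry12 (-0.32) were lower with an unadjusted p under 0.05 in limma. The sums ran from 2639 to 3927 and from 2645 to 3105, and much of them came from Cx3cr1, at 2512 and 1241 in siNEG and 1338 and 1884 in siGPR17. Of 9 neuronal genes 8 were tested and all 8 had a lower mean, with sums from 7086 to 8381 and from 6605 to 6863. Of 6 tested genes in the precursor list, all had a lower mean, with a median log2 difference of -0.19. The sums were 211136 to 251255 and 205082 to 207278. This list also holds Olig1, Olig2 and Sox10, which mark the whole lineage. Olig1 (-0.10) and Sox10 (-0.016) overlapped between the groups, and 4 genes did not, where 25.3% of all genes were lower without overlap. Of 8 tested genes that mark the mature oligodendrocyte, 4 had a higher and 4 a lower mean, with sums from 301032 to 338078 and from 355674 to 370042, and Mal and Opalin were too dim. For 3 of 8 fibroblast and mural genes that were tested, sums were 334 to 440 and 450 to 455. The part of these shifts in the values of the enzymes was not tested.

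**Figure D5:**
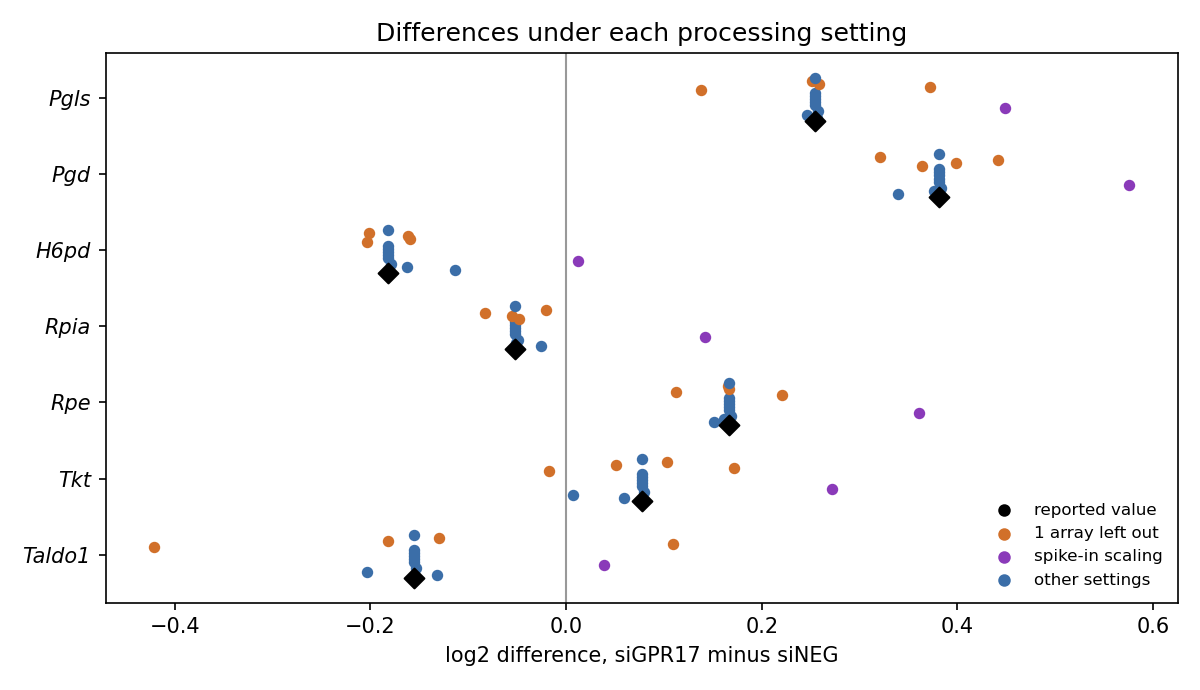
Log2 difference, siGPR17 minus siNEG, of each enzyme under the reported setting (diamond), with 1 array left out, with spike-in scaling and under the other settings. All points of Pgd, Pgls and Rpe lie above 0, while at least 1 point of H6pd, Rpia, Tkt and Taldo1 lies on the other side of 0 from the reported value.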

How the data were processed

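Total RNA of 4 samples was labelled with cyanine 3 and hybridized to SurePrint G3 rat arrays. The authors deposited the spot intensities of each array as Agilent Feature Extraction 10.7.3.1 gave them, per the file headers: a processed intensity after correction for background and trends across the array, and the uncorrected spot and background medians, none normalized between arrays. All 4 arrays were on 1 slide and in 1 scan, with each group in 1 column of the slide, so that column and treatment cannot be told apart. Replicates were compared over the tested probes (r = 0.994 in siNEG and 0.996 in siGPR17). The number of arrays limits the precision.

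From the deposited intensities, log2 values minus the 75th percentile of each array were computed. Control and outlier-flagged spots were left out, and repeated spots were averaged per probe. Every array gave a value for 45565 probes, and the 28016 well above background on at least 2 were fitted with lmFit and eBayes (limma 3.58.1, R 4.3.3). Normexp used the spot median in place of the planned mean. Symbols came from RefSeq (GRCr8, names only) for 21093 probes. The code was tested on simulated data.

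The genes named are the 7 enzymes, Gpr17, and from each fixed list at most 4 genes with the lowest unadjusted p under 0.05 and groups that do not overlap, genes with a fold of 1.5, and genes not tested. Some genes that this rule selects are not reported here. Other list genes and markers named for their role were chosen after their values were seen. The enzymes and lists were chosen with earlier results of these data known. Alternatives were normexp, quantile, median and spike-in scaling, filters on dim probes, a trend and robust option, the methods' t-test, a replicate block, each array left out, and the mean over probes of a gene.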

Additional observations from a re-analysis of the deposited data

How the results depend on the processing

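Each log2 difference stays the same by construction under the filters on dim probes, the trend and robust option, the methods' t-test and the replicate block. The same holds for the mean over probes, so direction could not change under these settings. Of 98 values of the 7 enzymes under 14 alternatives, 93 kept their direction and their side of the thresholds and 0 became significant. The 5 that changed sign were Rpia (0.14), H6pd (0.013) and Taldo1 (0.038) with scaling on 8 spike-in probes, Taldo1 without the second siNEG array (0.11, against -0.42 without the first) and Tkt without the first (-0.017, against 0.17 without the second). The cause was not tested. The median over the enzymes was 0.27 with spike-in scaling and 0.0073 with quantile normalization, and with an array left out it lay between -0.017, without the first siNEG array, and 0.11. The number of enzymes with an unadjusted p under 0.05 was 2 with normexp, spike-in scaling and the trend and robust option (Pgd and Pgls) and with the methods' t-test (Pgd and H6pd). With an array left out it ranged from 0, without either siGPR17 array, to 2, without the first siNEG array (Pgd and Taldo1) or the second (Pgd and Pgls). Genes past the thresholds numbered 112 under normexp and 184 when trend and robust were set, none of them among the enzymes, and 0 under each other alternative. Genes with an unadjusted p under 0.05 numbered from 707 to 2670 with an array left out. With the replicate block, 1279 genes and 1 enzyme, Pgd (log2 difference 0.38), had such a p, and 0 genes passed the thresholds. Deviations of arrays with the same replicate number correlated with r = -0.065, so the numbers were not taken as pairs. The mean over probes left the log2 difference of each enzyme as it was, since each has 1 probe.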
